A study of Homo sapiens with 9 samples.

Results

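The genes described here are 7 members of the plasminogen activator system and of the serpin family, taken from the 60612 genes of the deposited table by their symbols: PLAU, PLAT, PLAUR, SERPINE2, SERPINB2, SERPINB4 and SERPINB8. They were followed in MDA-MB-231, an established human triple-negative breast cancer line, 48 hours after Lipofectamine transfection of MILIP siRNA1, MILIP siRNA2 or a negative control siRNA, with 3 libraries per group and 9 in all. MILIP is a long noncoding RNA, and the comparisons ask which transcripts differ once it is depleted. The labels give 1 cell line and do not state whether the 3 libraries per group are separate cultures, so p-values measure library-to-library spread alone, which may be technical. The treatment text names siRNAs against PLANE where the treatment labels name MILIP.

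Urokinase, the product of PLAU, and tissue-type plasminogen activator, the product of PLAT, cut plasminogen into plasmin, a broad serine protease that degrades fibrin and matrix proteins and activates some matrix metalloproteases. PLAUR encodes the membrane-anchored urokinase receptor, which holds urokinase at the cell surface. Serpins are suicide inhibitors: the protease cleaves an exposed loop and becomes trapped in a covalent complex. In breast cancer, and in cell lines such as MDA-MB-231, urokinase and its receptor are known for their part in invasion.

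Libraries held between 15281220 and 19759371 gene counts, so that 3 counts, the limit that a count of 0 allows, stood for 0.152 to 0.198 CPM (counts scaled to a common library size by the TMM method). That limit covers counting error only. MILIP, the targeted gene, was at 1.2, 0.618 and 1.9 CPM with siRNA1 and at 0.534, 0.965 and 0.349 CPM with siRNA2, against 8.21, 8.32 and 8.7 CPM in control libraries, so every library of either siRNA lay below every control library (log2 fold changes -2.74 and -3.73, adjusted p = 2.51e-09 and 5.34e-11 by edgeR). The cells had high VIM (4619 ± 219 CPM with siRNA1, 4073 ± 78.7 CPM with siRNA2 and 4779.8 ± 219 CPM in control libraries, SD, n = 3 each), a mesenchymal marker of this line, and CDH1, the epithelial cadherin, at 1.8, 1.11 and 0.602 CPM in the same order. VIM is 1 of 9 markers listed as defining this line. The 9 summed to 8027 to 8576 CPM with siRNA1, 7674 to 7775 CPM with siRNA2 and 9171 to 9641 CPM in control libraries. CDH1 is 1 of 7 markers listed as near absent from this line, and others of those 7 were higher. The 7 summed to 17.7 to 20.4 CPM with siRNA1, 18.7 to 20.3 CPM with siRNA2 and 18 to 19.7 CPM in control libraries.

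All 7 genes had enough counts to be tested, among 15345 genes in the fit. Calls are adjusted p-values below 0.05 in the quasi-likelihood test of edgeR, adjusted over all tested genes by the Benjamini-Hochberg method. With siRNA1, 1 of the 7 genes was higher (PLAU) and 4 were lower than in control libraries (PLAT, PLAUR, SERPINB2 and SERPINB8), beside a background of 50.4% of all tested genes called in either direction (25.1% higher, 25.3% lower). With siRNA2, 3 were higher (PLAU, SERPINE2 and SERPINB4) and 2 were lower (SERPINB2 and SERPINB8), beside a background of 56.1% (27.2% higher, 28.9% lower). Between the siRNAs all 7 were called, 6 higher and 1 lower with siRNA2 than with siRNA1, beside a background of 60.4% (28.4% higher, 32% lower). The groups did not overlap for 5 of the 7 genes with siRNA1 (53.8% of all tested genes), 6 with siRNA2 (61.8%) and all 7 between the siRNAs (65.5%). Called changes of at least 2-fold were found for 0 of the 7 with siRNA1 (9.85% of all tested genes), 3 with siRNA2 (10.9%) and 2 between the siRNAs (14.9%). PLAU was called higher with both siRNAs (11.8% of all tested genes) and SERPINB2 and SERPINB8 lower with both (11.1%). No member was called in opposite directions by the siRNAs (9.93% of all tested genes), and so none was lower with siRNA1 and higher with siRNA2 than in control libraries (5.59%). PLAT, PLAUR and SERPINB8 were lower with siRNA1 than in control libraries and also higher with siRNA2 than with siRNA1 (14.8%). SERPINB4 passed the filter on low counts only through the siRNA2 libraries, where it is high, so its calls with siRNA2 against control and against siRNA1 are partly built into the filter. The shares of members called in the comparisons with control (5 of 7 in each) stand above backgrounds that already exceed 50%, so the counts alone say little about these genes, and the sizes below carry the description. The median log2 fold change of the 7 genes was -0.75 with siRNA1 (all tested genes 0.0032), 0.14 with siRNA2 (all tested genes -0.011) and 0.69 for siRNA2 against siRNA1 (all tested genes -0.033).

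PLAU, the urokinase gene, rose with both siRNAs, and more with siRNA2. Its level was 438, 407 and 431 CPM with siRNA1 and 896, 864 and 848 CPM with siRNA2, against 296, 285 and 291 CPM in control libraries. No library of one group reached the range of another, and the order was siRNA2, siRNA1, control from high to low. The fold was 1.46 with siRNA1 (log2 fold change 0.55, SE 0.052, adjusted p = 3.75e-09 by edgeR) and 2.99 with siRNA2 (1.58, SE 0.053, adjusted p = 1.19e-17 by edgeR). Directly compared, siRNA2 was 2.04-fold above siRNA1 (log2 fold change 1.03, SE 0.052, adjusted p = 1.26e-14 by edgeR). PLAU lies on chromosome 10, plus strand, at 73909177 to 73917496 (GRCh38 coordinates as the table gives them), and 7528 bases of its span overlap C10orf55 on the opposite strand. Whether counting used strand is not known from the sources, so reads of the pair cannot be told apart where they overlap. C10orf55 averaged 5.88 ± 1.03 CPM with siRNA1, 5.71 ± 0.509 CPM with siRNA2 and 3.87 ± 0.526 CPM in control libraries (SD, n = 3 each).

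PLAT, the other activator, fell with siRNA1 and stayed near the control level with siRNA2. It was at 53.1, 50.6 and 53.8 CPM with siRNA1 and at 101, 92.6 and 104 CPM with siRNA2, against 91.7, 89.5 and 89.7 CPM in control libraries. The siRNA1 libraries lay well below the others, and the siRNA2 libraries lay just above the control range without overlap. The log2 fold change with siRNA1 was -0.78 (SE 0.066, adjusted p = 4.31e-10 by edgeR), which is 0.581 of the control level. With siRNA2 it was 0.14 (SE 0.064, adjusted p = 0.0757 by edgeR) and did not pass, although it passed with DESeq2 (adjusted p = 0.0398), with median-of-ratios scaling (adjusted p = 0.0401 by edgeR), with a minimum mean FPKM of 1 (adjusted p = 0.0221 by edgeR) and without siRNA2 library 2 (adjusted p = 0.0416 by edgeR). Over all alternatives its adjusted p ran from 0.0221 to 0.262. The siRNA2 level was 1.89-fold the siRNA1 level (log2 fold change 0.92, adjusted p = 9.87e-12 by edgeR). The urokinase and tissue-type activator genes thus differed in direction with siRNA1. PLAT is on the minus strand of chromosome 8, at 42174718 to 42207676, and overlaps no other listed gene.

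PLAUR, the urokinase receptor, fell with siRNA1 and did not pass the test with siRNA2. It was at 258, 213 and 233 CPM with siRNA1 and at 410, 364 and 360 CPM with siRNA2, against 356, 367 and 390 CPM in control libraries. The siRNA2 and control ranges overlapped, and every siRNA1 library lay below both. The log2 fold change was -0.66 with siRNA1 (SE 0.067, adjusted p = 1.05e-08 by edgeR) and 0.027 with siRNA2 (SE 0.066, adjusted p = 0.754 by edgeR). The siRNA2 level of PLAUR was 1.61-fold its siRNA1 level (log2 fold change 0.69, adjusted p = 2.68e-09 by edgeR). The gene lies on chromosome 19, minus strand, at 43646095 to 43670547, and a 277-base stretch holds RN7SL368P, a pseudogene on the same strand with a mean of 2.11 counts per library.

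**Figure D1:**
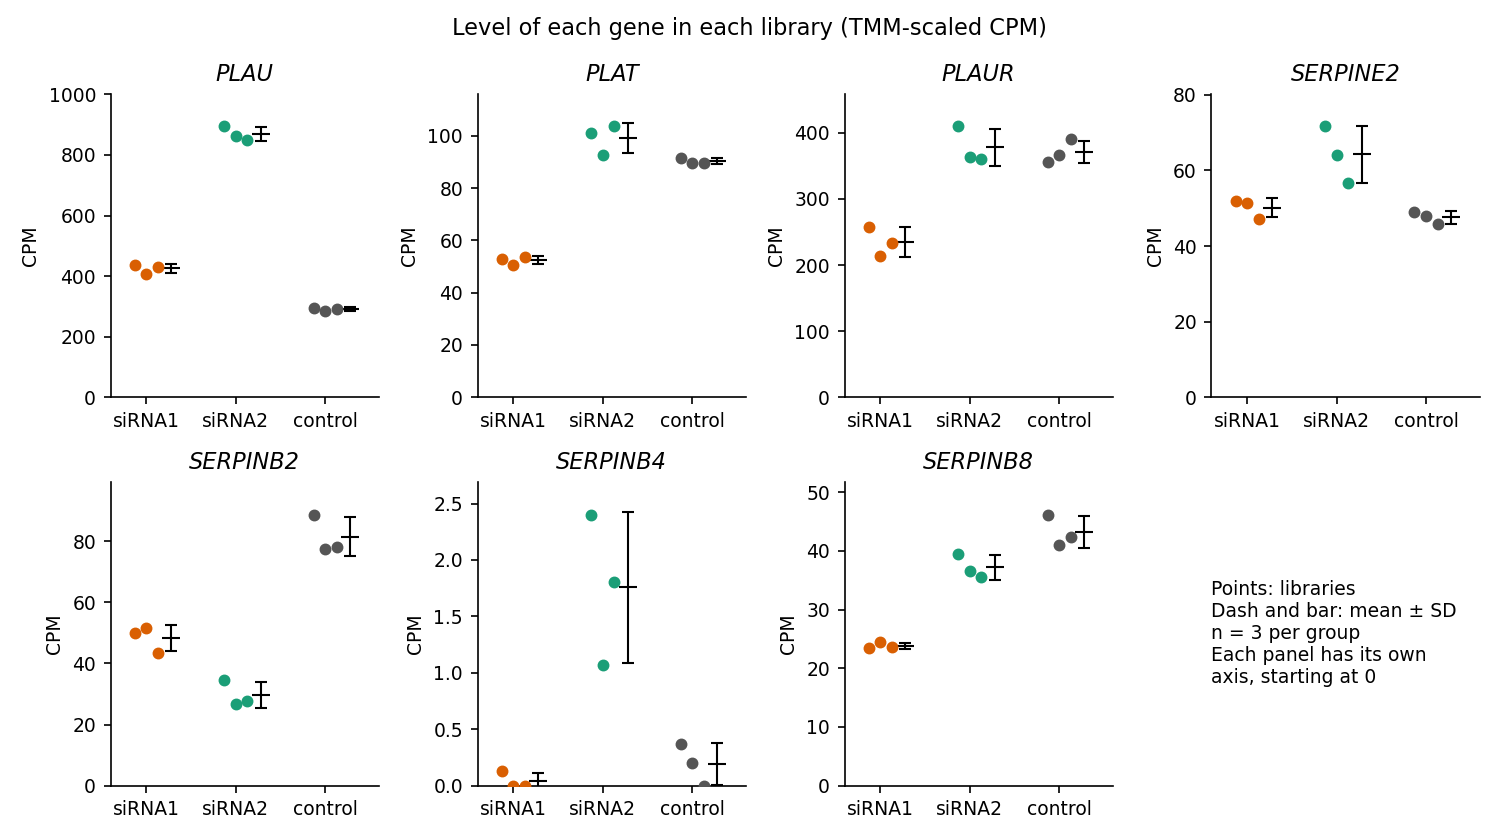
Level of each of the 7 genes in each library, in TMM-scaled CPM, with points for libraries and a dash with bar for the mean ± SD of 3 libraries per group (siRNA1, siRNA2 and control from left to right). PLAU rises with both siRNAs (425 ± 15.9 and 869 ± 24.1 CPM, against 291 ± 5.4 CPM in control libraries), SERPINB2 falls with both, and PLAT, PLAUR and SERPINB8 are lowest with siRNA1.

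Among the inhibitors, SERPINB2, which encodes plasminogen activator inhibitor type 2, an inhibitor of urokinase and of the tissue-type activator, fell with both siRNAs. It was at 50.1, 51.6 and 43.5 CPM with siRNA1 and at 34.4, 26.8 and 27.6 CPM with siRNA2, against 88.7, 77.6 and 78.2 CPM in control libraries. The groups did not overlap, and their order was the reverse of that of PLAU. The log2 fold change was -0.75 with siRNA1 (SE 0.088, adjusted p = 1.12e-07 by edgeR) and -1.46 with siRNA2 (SE 0.092, adjusted p = 1.24e-12 by edgeR), which left 0.593 and 0.363 of the control level. Its siRNA2 level was below its siRNA1 level (log2 fold change -0.71, SE 0.093, adjusted p = 3.94e-07 by edgeR), and was the only one of the 7 genes with that direction. SERPINB2 and PLAU were called in opposite directions with each siRNA. SERPINB2 spans 63871692 to 63903888 of chromosome 18 on the plus strand, and shares 6715 bases with SERPINB10, which had a mean of 0.89 counts per library.

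SERPINE2 encodes protease nexin 1, a secreted inhibitor of thrombin, urokinase and the tissue-type activator. It was at 52.1, 51.3 and 47.2 CPM with siRNA1 and at 71.8, 64.2 and 56.8 CPM with siRNA2, against 48.9, 48.0 and 45.8 CPM in control libraries. Every siRNA2 library lay above the other groups, which overlapped each other. SERPINE2 rose with siRNA2 (log2 fold change 0.43, SE 0.08, adjusted p = 5.34e-05 by edgeR) and did not pass with siRNA1 (0.077, SE 0.081, adjusted p = 0.455 by edgeR). The difference between the siRNAs passed (log2 fold change 0.36, SE 0.079, adjusted p = 0.000389 by edgeR). The gene is on chromosome 2, minus strand, at 223975045 to 224039318, with no overlapping gene in the table.

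SERPINB8 encodes an intracellular serpin that inhibits furin, a proprotein convertase, in vitro. It was at 23.5, 24.4 and 23.7 CPM with siRNA1 and at 39.5, 36.5 and 35.5 CPM with siRNA2, against 46.2, 41.0 and 42.4 CPM in control libraries. The siRNA1 libraries stood apart at the bottom, while the siRNA2 libraries lay just below the control range. The fall with siRNA1 was a log2 fold change of -0.86 (SE 0.081, adjusted p = 3.14e-09 by edgeR), to 0.553 of the control level. The fall with siRNA2 was small (-0.22, SE 0.078, adjusted p = 0.0211 by edgeR) and was lost without control library 1 (adjusted p = 0.168), without siRNA2 library 2 (adjusted p = 0.0748), without siRNA2 library 3 (adjusted p = 0.0985) and with no filter on low counts (adjusted p = 0.105, all by edgeR). Set against siRNA1, siRNA2 gave a higher SERPINB8 level (log2 fold change 0.64, adjusted p = 2.22e-07 by edgeR). FURIN itself rose with both siRNAs (123 CPM with siRNA1 and 167 CPM with siRNA2, against 95.8 CPM in control libraries, log2 fold changes 0.36 and 0.80). SERPINB8 spans 63970029 to 64019779 of chromosome 18 on the plus strand, and 11746 bases of its span overlap HMSD on the same strand, which averaged 6.04 ± 0.915 CPM with siRNA1, 5.33 ± 0.176 CPM with siRNA2 and 6.98 ± 0.308 CPM in control libraries (SD, n = 3 each).

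SERPINB4, known as squamous cell carcinoma antigen 2 and an inhibitor of chymotrypsin-like proteases such as cathepsin G, was near the detection limit in all but 1 group. Its counts were 2, 0 and 0 with siRNA1 and 45, 21 and 31 with siRNA2, against 6, 3 and 0 in control libraries. The siRNA2 libraries (2.4, 1.07 and 1.81 CPM) lay above all others, and SERPINB4 passed the count filter only through them. Its tests with siRNA2 are therefore partly built into that filter. Against control the log2 fold change with siRNA2 was 3.18 (SE 0.574, adjusted p = 4.12e-05 by edgeR), with summed counts of 97 and 9, a ratio of 9.37 with a 95% exact binomial interval of 4.74 to 21.1 that covers counting error only. The log2 fold change was 4.15 without control library 1 and 2.58 without control library 3, and 0.77 with limma on log2(FPKM+1), a scale that understates changes of low genes. Against siRNA1 the summed counts were 97 and 2, a ratio of 46.3 with an interval of 12.5 to 388 (log2 fold change 5.29, adjusted p = 1.21e-06 by edgeR). Both siRNA1 counts are in library 1, and without it siRNA1 has 0 counts, so no fold is given for that alternative. No fold is given for siRNA1 against control, since both are near the limit of 3 counts. That comparison did not pass (adjusted p = 0.141 by edgeR), but passed without control library 3 (adjusted p = 0.036 by edgeR) and without siRNA1 library 1 (adjusted p = 0.0398 by edgeR). SERPINB4 lies on chromosome 18, minus strand, at 63637259 to 63644256. SERPINB3, its near-identical neighbour, had 1 count in all 9 libraries together, and reads that match both copies may have been left out or assigned to either.

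**Figure D2:**
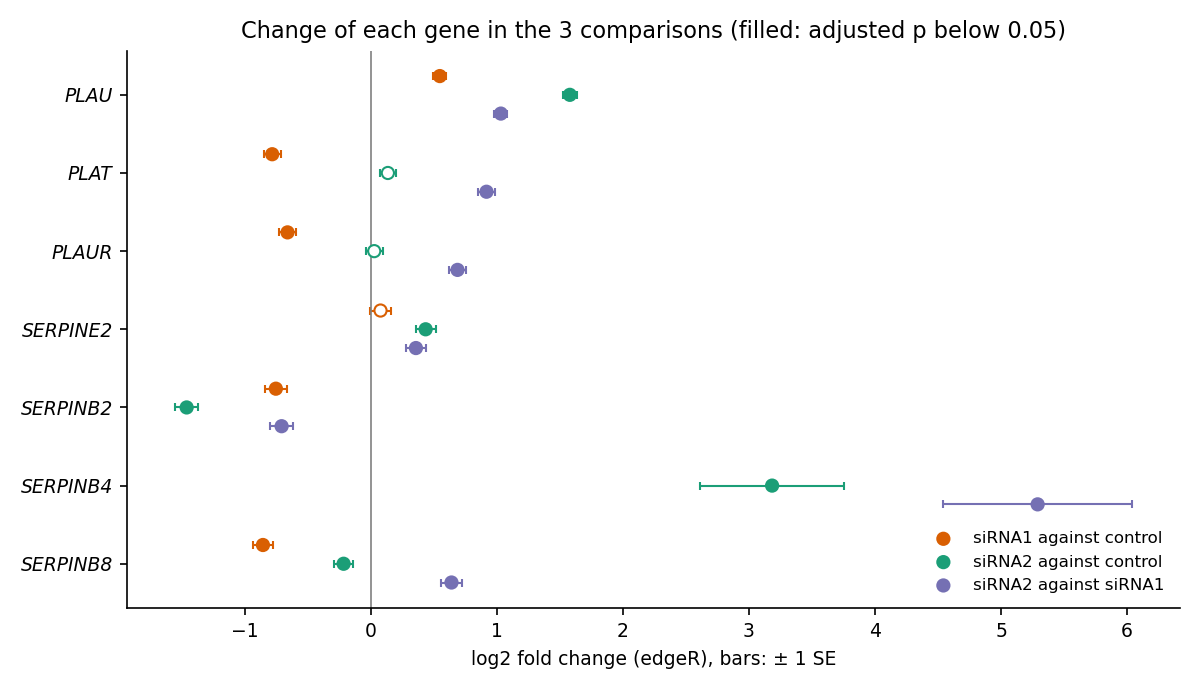
Log2 fold change of each gene (edgeR, horizontal axis, bars ± 1 SE) for siRNA1 against control, siRNA2 against control and siRNA2 against siRNA1, filled where the adjusted p is below 0.05. PLAU lies to the right in all 3 comparisons (0.55, 1.58 and 1.03) and SERPINB2 to the left in all 3 (-0.75, -1.46 and -0.71). No point is drawn for SERPINB4 with siRNA1 against control, where both groups are near 3 counts.

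Levels of different genes were compared per length, as the deposited FPKM values (fragments scaled to exonic length and library total). With siRNA1 the order was PLAU (146 ± 4.48 FPKM), PLAUR (53.2 ± 4.75), SERPINB2 (17.9 ± 1.63), PLAT (7.49 ± 0.203), SERPINE2 (5.66 ± 0.297), SERPINB8 (4.19 ± 0.117) and SERPINB4 (0.02 ± 0.0346). With siRNA2 it was PLAU (293 ± 4.74 FPKM), PLAUR (84.2 ± 5.24), PLAT (13.9 ± 0.83), SERPINB2 (10.7 ± 1.4), SERPINE2 (7.11 ± 0.75), SERPINB8 (6.4 ± 0.282) and SERPINB4 (0.883 ± 0.327). In control libraries it was PLAU (97.9 ± 2.26 FPKM), PLAUR (82.6 ± 3.38), SERPINB2 (29.5 ± 2.45), PLAT (12.6 ± 0.246), SERPINB8 (7.44 ± 0.506), SERPINE2 (5.27 ± 0.213) and SERPINB4 (0.0967 ± 0.095), each as mean ± SD with n = 3. SERPINB2 stood above PLAT in the siRNA1 and control libraries and below it in every siRNA2 library. SERPINE2 and SERPINB8 changed places between siRNA1 and control, and with siRNA2 their ranges overlapped. All other neighbours in these orders had ranges that did not overlap.

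Put together per length, the activator transcripts (PLAU plus PLAT) summed to 153 ± 4.66 FPKM with siRNA1 and 307 ± 4.55 FPKM with siRNA2, against 111 ± 2.49 FPKM in control libraries. The 4 serpin members summed to 27.7 ± 1.99 FPKM with siRNA1 and 25.1 ± 2.57 FPKM with siRNA2, against 42.3 ± 3.19 FPKM in control libraries (SD, n = 3 each). The sums of activators over serpins were 5.05 to 6.09 with siRNA1 and 11.1 to 12.9 with siRNA2, against 2.46 to 2.72 in control libraries, with no overlap between groups. PLAU over PLAUR was 2.56 to 2.89 with siRNA1 and 3.3 to 3.59 with siRNA2, against 1.13 to 1.26 in control libraries. The ratio was therefore above the control range with each siRNA, with PLAUR low in one case and PLAU high in both. SERPINB2 as a percentage of PLAU was 12.3 ± 1.38 with siRNA1 and 3.66 ± 0.424 with siRNA2, against 30.1 ± 1.84 in control libraries. These sums follow from the choice of members and have no test of their own. Other serpins that inhibit the activators are left out of the serpin sum. Including them could change that sum and the order of the groups in the ratio. SERPINB4 and SERPINB8 are in the sum but are not described here as inhibitors of the activators. The ratio is therefore not a balance of the activators and their inhibitors. The sums are transcript levels of bulk cultures, in which a change in the number of expressing cells and a change per cell cannot be told apart. Protein or activity was not measured here.

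**Figure D3:**
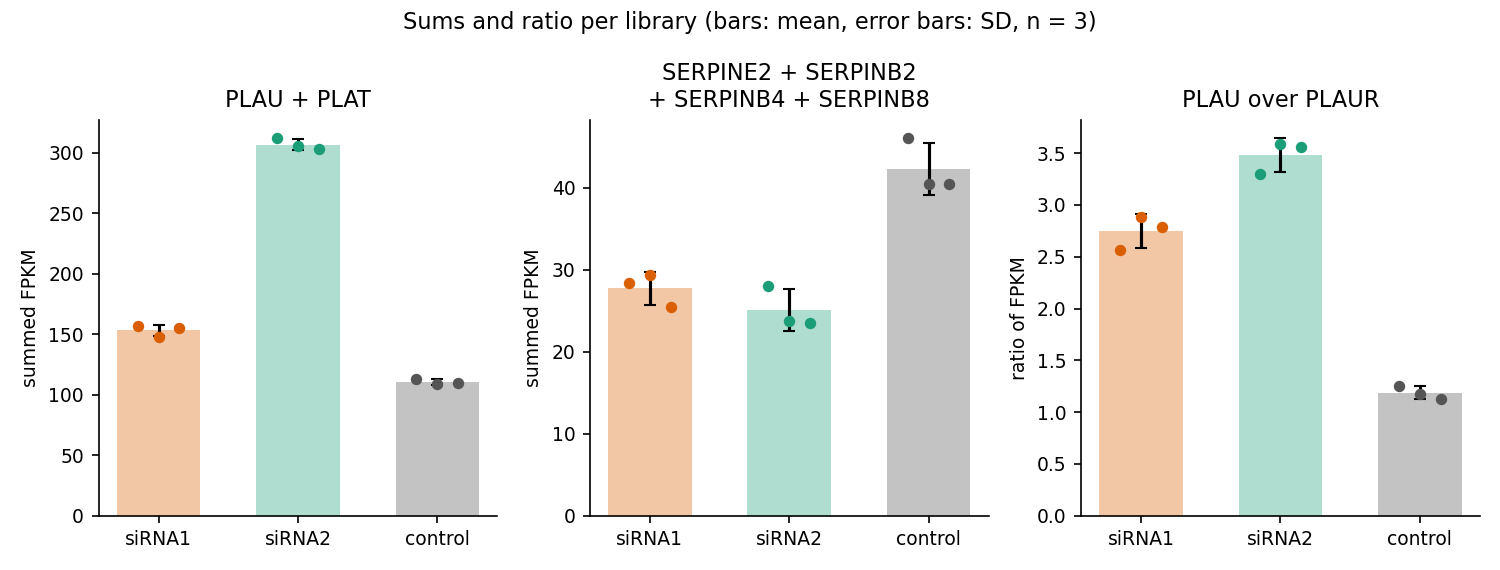
Summed FPKM of the activators PLAU and PLAT, summed FPKM of SERPINE2, SERPINB2, SERPINB4 and SERPINB8, and the ratio of PLAU to PLAUR, per library (points) with mean (bar) and SD (n = 3), for siRNA1, siRNA2 and control. Activator sums are 153, 307 and 111 FPKM and serpin sums 27.7, 25.1 and 42.3 FPKM in that order.

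SERPINB2, SERPINB4 and SERPINB8 lie in 1 cluster of 10 clade B serpin genes on chromosome 18, over 542.8 kilobases from 63476958 to 64019779. Most listed clade B genes lie there, so the shared position follows largely from the choice of clade B genes. Within the cluster, SERPINB5, SERPINB11, SERPINB12 and SERPINB13 had 0 counts in every library, SERPINB3 had 1 count in all and SERPINB10 between 0 and 3 per library. SERPINB7, which lies between SERPINB4 and SERPINB2, was at 1.44 CPM with siRNA1 and 3.67 CPM with siRNA2, against 1.66 CPM in control libraries, and rose with siRNA2 (log2 fold change 1.15, adjusted p = 0.000276 by edgeR) but not with siRNA1 (-0.18, adjusted p = 0.623 by edgeR). With siRNA2, SERPINB7 thus rose while SERPINB2 fell. SERPINB4, which passed the count filter only through siRNA2, was also higher, and the small fall of SERPINB8 was lost in the 4 alternatives given above. Clade B genes outside the cluster differed again. SERPINB9, an inhibitor of granzyme B, was at 4.16 CPM with siRNA1 and 16.5 CPM with siRNA2, against 10.5 CPM in control libraries (log2 fold changes -1.33 and 0.65). SERPINB6 followed the same directions (-0.50 and 0.21), and SERPINB1 rose with both (0.27 and 0.52).

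**Figure D4:**
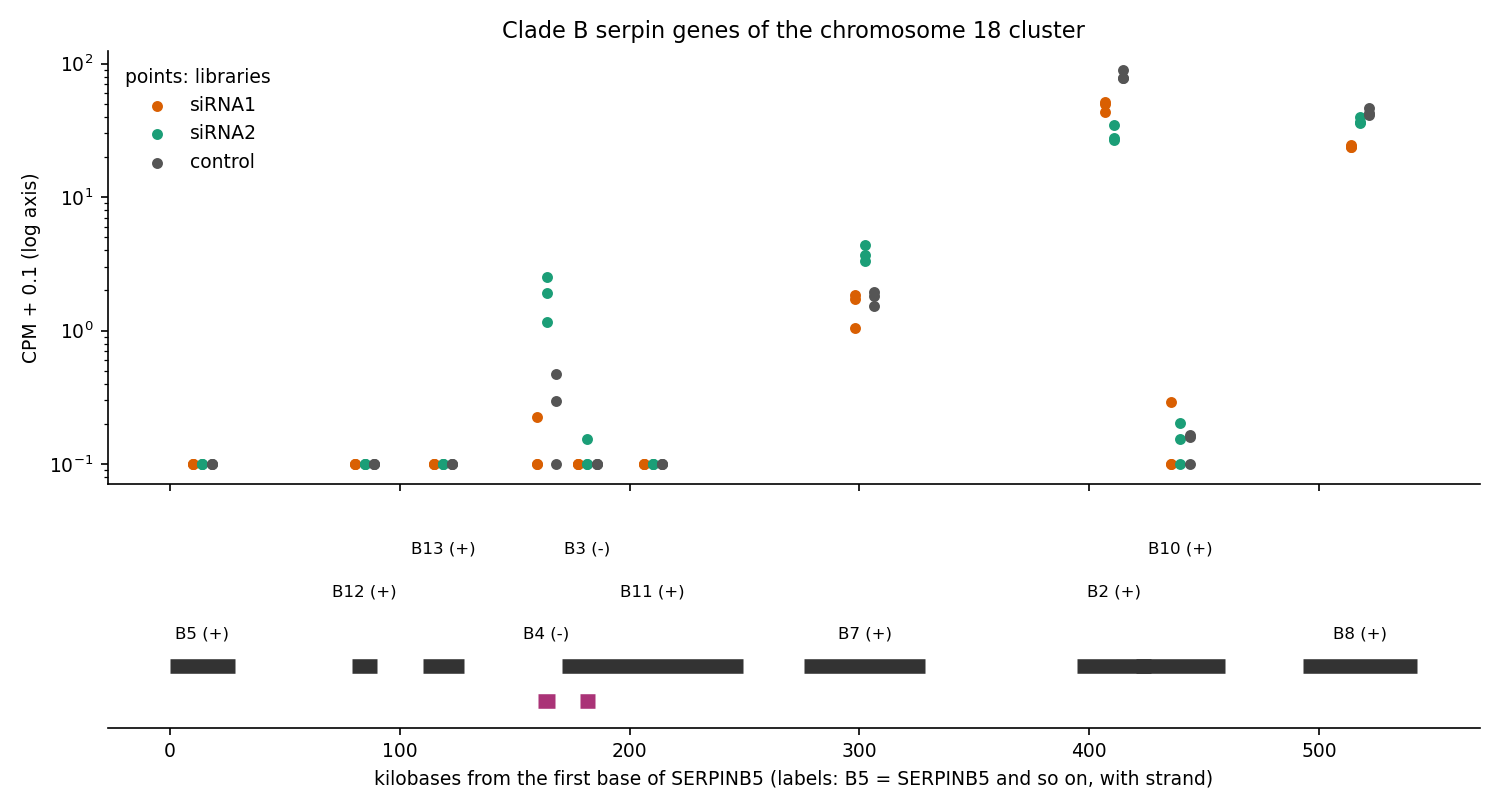
Level of each clade B serpin gene of the chromosome 18 cluster (CPM + 0.1, log axis, points for libraries) above a map of the genes drawn to scale in kilobases from the first base of SERPINB5, with minus-strand genes on the lower line. Only SERPINB4, SERPINB7, SERPINB2 and SERPINB8 reach 1 CPM in any library, and the siRNA2 libraries are the highest for SERPINB4 and SERPINB7 and the lowest for SERPINB2.

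Promoter windows of 250 bases before to 50 bases after the start (RefSeq, GRCh38.p14) were found for 6 of the 7 genes, 8 windows in all, since PLAU and SERPINE2 have more than 1 start. PLAU, PLAUR and SERPINB2 are textbook targets of AP-1, the dimer of FOS and JUN family proteins. The AP-1 letters TGANTCA, searched on both strands, were found in 3 of the 8 windows, those of PLAUR, SERPINB2 and SERPINB8, and 7.71% of 35116 promoter windows hold them. These 3 windows are shown because all 3 genes fell with siRNA1, with the matches in capitals. PLAT fell with siRNA1 too and had no window to search. The SERPINB2 window belongs to a RefSeq start inside the longer span that the table gives for the gene. A match is a description of the letters and not of binding, and no statement follows from its absence in the PLAU, SERPINE2 and SERPINB4 windows.
PLAUR promoter, chr19:43670120-43670419, minus strand: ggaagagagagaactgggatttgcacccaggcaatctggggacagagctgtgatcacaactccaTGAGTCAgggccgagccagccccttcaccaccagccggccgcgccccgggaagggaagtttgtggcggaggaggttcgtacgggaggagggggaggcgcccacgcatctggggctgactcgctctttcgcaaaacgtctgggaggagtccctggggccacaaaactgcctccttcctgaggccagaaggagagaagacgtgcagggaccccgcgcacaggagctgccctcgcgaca
SERPINB2 promoter, chr18:63887455-63887754, plus strand: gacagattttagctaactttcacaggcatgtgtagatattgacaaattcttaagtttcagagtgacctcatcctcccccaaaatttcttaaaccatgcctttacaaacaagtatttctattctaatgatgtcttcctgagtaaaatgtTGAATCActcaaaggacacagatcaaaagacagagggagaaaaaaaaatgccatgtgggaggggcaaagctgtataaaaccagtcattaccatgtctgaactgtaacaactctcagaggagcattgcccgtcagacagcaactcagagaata
SERPINB8 promoter, chr18:63969831-63970130, plus strand: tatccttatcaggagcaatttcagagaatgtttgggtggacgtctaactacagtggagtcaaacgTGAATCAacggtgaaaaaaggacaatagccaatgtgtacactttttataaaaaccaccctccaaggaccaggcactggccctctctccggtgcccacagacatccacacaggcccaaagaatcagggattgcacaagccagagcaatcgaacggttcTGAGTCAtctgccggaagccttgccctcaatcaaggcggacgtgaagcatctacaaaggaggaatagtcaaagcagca

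Counted from the start, the matches begin at -186 in PLAUR, -102 in SERPINB2, and -185 and -28 in SERPINB8. On either strand, TATAAA words begin at -30 in SERPINB2 and at -142 and -140 in SERPINB8. GGGCGG words begin at -66, -51 and -40 in the second PLAU window. In SERPINE2 they begin at -50 in the first window and at -230 and -183 in the second. TATAAA occurs in 11.5% of all windows and GGGCGG in 45%. Among 14 listed AP-1 and ETS factor genes, FOSL1, a FOS family member, fell with both siRNAs (611 CPM with siRNA1 and 485 CPM with siRNA2, against 934 CPM in control libraries, log2 fold changes -0.61 and -0.94). JUN fell with both as well (-0.53 and -0.34), JUNB rose with siRNA2 (0.92), and FOSL2 rose with both (0.16 and 0.70). ETV4, an ETS factor, moved in opposite directions (0.76 and -0.99). In that list 5 genes were higher and 6 lower with siRNA1 (25.1% and 25.3% of all tested genes), and 6 higher and 4 lower with siRNA2 (27.2% and 28.9%). Whether these factors act on the members was not tested.

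Transfected siRNAs can lower transcripts whose 3 prime UTR matches their first bases, and the 7-base words most tied to lower transcripts were therefore looked up in the members. Over the longest annotated 3 prime UTR of 12586 tested genes, the word with the lowest t was AATTCCA for siRNA1 (median log2 fold change -0.22 in 2110 genes with it, 0.038 in the others) and GACCCTA for siRNA2 (-0.32 in 665 genes with it, 0.014 in the others). Both words were chosen from the fold changes they describe, and MILIP holds both. The siRNA1 word occurs in 1 of the 7 members, SERPINB8, at base 866 of a UTR of 2096 bases, shown here with the word in capitals.
SERPINB8 3 prime UTR site: aagtcacccacAATTCCAacacacagcaa
The siRNA2 word occurs once in the PLAT UTR of 760 bases. PLAU, PLAUR, SERPINE2, SERPINB2 and SERPINB4 hold neither word, nor the forms 1 base along (ATTCCAA and ACCCTAA). Only the longest annotated UTR of each gene was searched, and the part of these words in the changes of any member was not tested.

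Partners of the system were taken from a list of 30 genes, 22 of them tested. With siRNA1, 6 of the 22 rose and 9 fell (median log2 fold change 0.032), beside 25.1% and 25.3% of all tested genes, so the number that rose is near the background. With siRNA2, 14 rose and 5 fell (median 0.44), beside 27.2% and 28.9%. PLG, plasminogen itself, had 0 counts in every library, so it was below 0.152 to 0.198 CPM. SERPINF2, which encodes alpha 2-antiplasmin, the main plasmin inhibitor, rose with both siRNAs from few counts (2.24 CPM with siRNA1 and 2.13 CPM with siRNA2, against 0.723 CPM in control libraries, log2 fold changes 1.63 and 1.54). MRC2, an endocytic collagen receptor that associates with the urokinase receptor, was at 26.5 CPM with siRNA1 and 115 CPM with siRNA2, against 46 CPM in control libraries (log2 fold changes -0.79 and 1.32). LRP1, which clears complexes of urokinase with its inhibitors, rose with siRNA2 (337 CPM, against 176 CPM in control libraries, log2 fold change 0.94, adjusted p = 1.86e-10 by edgeR) and did not pass with siRNA1 (183 CPM, 0.05, adjusted p = 0.609 by edgeR). VLDLR, a receptor of the same family, fell with siRNA1 and rose with siRNA2 (-0.82 and 0.61). ANXA2 and S100A10, which together form a plasminogen receptor, moved apart: ANXA2 fell with siRNA1 and rose with siRNA2 (-0.30 and 0.20), and S100A10 rose with siRNA1 and fell with siRNA2 (0.21 and -0.20). ITGB3, a chain of the vitronectin receptor, rose with both from low levels (1.75 CPM with siRNA1 and 4.22 CPM with siRNA2, against 0.865 CPM in control libraries). ITGAV, the alpha chain of that receptor and far higher, fell with both (84.4 CPM with siRNA1 and 92.6 CPM with siRNA2, against 131 CPM in control libraries, log2 fold changes -0.63 and -0.50).

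Metalloproteases that plasmin can activate, with their TIMP inhibitors, gave 8 tested genes of 11. With siRNA1, 2 rose and 5 fell, beside 25.1% and 25.3% of all tested genes, and with siRNA2 all 8 rose, beside 27.2%. MMP14, a membrane-bound collagenase, was at 193 CPM with siRNA1 and 1710 CPM with siRNA2, against 825 CPM in control libraries (log2 fold changes -2.10 and 1.05). MMP1, an interstitial collagenase, had the same directions (-0.75 and 1.23), as had TIMP2 (-0.63 and 0.88), and MMP3, stromelysin 1, rose with both (1.03 and 2.38). Like PLAT and PLAUR, MMP14 and MMP1 were lower with siRNA1 than with siRNA2. In the coagulation list 4 genes rose and 3 fell of 12 tested with siRNA1, near the 25.1% and 25.3% of all tested genes, and 7 rose and 2 fell with siRNA2, beside 27.2% and 28.9%. F13A1, the catalytic chain of the factor that crosslinks fibrin, had the largest change of the list (9.94 CPM with siRNA1, against 0.657 CPM in control libraries, log2 fold change 3.90, adjusted p = 9.82e-13 by edgeR), and did not pass with siRNA2 (0.973 CPM, 0.55, adjusted p = 0.178 by edgeR). F2RL2, a thrombin receptor, rose with siRNA2 from few counts (2.25 CPM, against 0.517 CPM in control libraries, 2.10, adjusted p = 1.67e-05 by edgeR). F3, tissue factor, fell with siRNA2 (50.3 CPM, against 86.5 CPM in control libraries, log2 fold change -0.78), TFPI2, a Kunitz inhibitor of plasmin and of tissue factor complexes, rose with siRNA2 (144 CPM, against 56.1 CPM in control libraries, 1.36), and THBD, thrombomodulin, fell with both (-1.22 and -0.80). Of 12 genes for RNA-binding regulators, 1 rose and 9 fell with siRNA1 (25.1% and 25.3% of all tested genes), and 2 rose and 8 fell with siRNA2 (27.2% and 28.9%). SERBP1, named for its binding to a plasminogen activator inhibitor mRNA, fell with both (-0.89 and -0.50).

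The 3 genes with the highest Pearson r to each member over the 9 libraries (log2 CPM, 12944 candidate genes) describe likeness of pattern only, since the 9 points fall into 3 groups that share libraries and depth. For PLAU they were ARID3A (r = 0.999), WSB2 and H1-2 (both 0.998). For PLAT they were WDR45B (0.996), METTL9 (0.995) and ECE1 (0.994), and for PLAUR UFD1, AGAP2-AS1 (both 0.99) and PAX8-AS1 (0.989). For SERPINB2 they were WDR43, C1orf198 (both 0.985) and POLA1 (0.984), and for SERPINB8 PROSER1 (0.992), PTP4A2 (0.99) and BAZ1A (0.989). For SERPINE2 the best was ADAMTSL5 (0.97) and for SERPINB4 EZH1 (0.983). Among the members themselves, PLAUR, PLAT and SERPINB8 were close to each other (r = 0.963 for PLAUR with PLAT, 0.918 for PLAUR with SERPINB8 and 0.911 for PLAT with SERPINB8). PLAU, SERPINE2 and SERPINB4 were nearly as close (0.894 for PLAU with SERPINE2, 0.873 for SERPINE2 with SERPINB4 and 0.84 for PLAU with SERPINB4). SERPINB4 was near the detection limit except with siRNA2. PLAU and SERPINB2 were opposed (r = -0.957). PLAU and its receptor gene PLAUR were only loosely related (r = 0.21).

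Markers of other cell types were low in control libraries, and their sums moved with siRNA2. The endothelial and fibroblast sums moved with siRNA1 as well. The 7 leukocyte markers summed to 1.24 to 2.82 CPM with siRNA1 and 8.94 to 10.2 CPM with siRNA2, against 2.04 to 3.17 CPM in control libraries, with CD14 carrying the rise (8.49 CPM with siRNA2), while CD3E and MS4A1 had 0 counts in every library. The 6 endothelial markers summed to 6.01 to 7.85 CPM with siRNA1 and 18.6 to 20.7 CPM with siRNA2, against 9.38 to 11.6 CPM in control libraries. The 8 fibroblast markers summed to 50.9 to 59.8 CPM with siRNA1 and 73 to 75.4 CPM with siRNA2, against 10.6 to 14.5 CPM in control libraries, nearly all of it COL1A1 and PDGFRB. DCN and LUM had 0 counts in every control library, but each had counts in some siRNA library. The part of these markers in the changes of the members was not tested.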

How the data were processed

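Total RNA of 9 libraries of MDA-MB-231 cells was sequenced on Illumina libraries, per the labels' protocols. The deposited table holds a read count per gene and library and FPKM values made by the authors: dividing each count by exonic length and library total gives 100% of the FPKM values within 0.005. Trimmomatic 0.30, HISAT2 2.0.1, HTSeq 0.6.1, DESeq and hg19 are named, per the submitters' processing notes, without the step each served, while gene positions in the table match GRCh38 (GENCODE v29).

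Genes were kept by filterByExpr at a count minimum of 10 and a total of 15. After TMM scaling, 1 quasi-likelihood model held all 3 groups (edgeR 4.0.16, R 4.3.3). Its two-sided p-values were adjusted over 15345 genes by the Benjamini-Hochberg method, with calls below 0.05. The SE is the absolute log2 fold change over the square root of F. Alternatives used DESeq2 1.42.0 and limma 3.58.1, and the steps were tested on simulated data. Far fewer genes changed in the simulation than were called here, so it does not cover changes this broad. Windows and UTR words were searched with Python 3.11.15, and figures drawn with matplotlib 3.10.9. Named genes were taken from the members, MILIP, the 3 genes most like each member, cluster neighbours and up to 4 of the most changed genes of each list. FURIN, LRP1, ANXA2, S100A10, ITGAV, F3, FOSL2, JUN, PLG and the cell markers VIM, DCN, LUM, CD3E and MS4A1 fall outside that rule and were added for their roles after their values were seen. The members and lists were chosen with earlier results of these data known. Some genes of the lists are not reported here. No sequence of chromosome 8 is printed. Same-numbered libraries of different groups had correlations of -0.0935 to 0.129 in their deviations from group means, so the numbers do not pair the libraries. No 2 libraries of a group agreed within sampling noise (chi-square of 2.18 to 8.82 per gene).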

Additional observations from a re-analysis of the deposited data

How the results depend on the processing

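The comparisons of the members with control kept their direction and their side of the threshold in all alternatives except those named here and in the results above. Requiring a change of at least 2-fold left 0 members with siRNA1, 3 with siRNA2 and 2 between the siRNAs, in place of 5, 5 and 7, and left 4, 4 and 6 of the partner genes in place of 15, 19 and 19, as a stricter rule must. Leaving out each library in turn gave 5 to 6, 4 to 5 and 7 called members, and 14 to 15, 17 to 20 and 16 to 20 called partners. With siRNA2 the uncalled PLAUR log2 fold change ran from -0.036 (without siRNA2 library 1, a reversed sign) to 0.065. With total-count scaling, chosen after seeing the data, the median of all genes moved by less than 0.1 on the log2 scale in each comparison. The replicate block gave SERPINB4 a log2 fold change of 3.23 with siRNA2 and changed no call of a member, nor did the shared numbers pair the libraries (4 of 9 correlated best with a library of their own number). SERPINB4 had no value with a minimum mean FPKM of 1. At this depth SERPINB4 below 3 counts cannot be told from absent.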
